A study of Mus musculus with 2 samples.

Results

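The contractile apparatus of smooth muscle was described through 35 genes, all of them found by symbol among the 30905 gene identifiers of the deposited matrices. They were chosen by name for their place in the apparatus: actins, myosin chains, myosin light chain kinase, thin filament regulators, dense body and intermediate filament proteins, adhesion proteins and the transcription factors that drive them. The cells came from the brains of male mice aged 4 to 6 weeks of the strain Dmp1Cre-COX8Dendra2, in which Cre recombinase driven by Dmp1 sequences switches on Dendra2, a fluorescent protein placed in mitochondria. Flow cytometry for Dendra2 gave the cells that were loaded on a 10x Genomics 3' v3.1 chip as replicate 1 and replicate 2, which share genotype, sex, age and sort and so form 1 group. The sort was set to take cells in which the Dmp1-driven Cre had acted. Its purity was not tested, and cells without Dendra2 were not analysed here. The labels do not say how many animals were pooled or whether the libraries came from separate animals. The p-values measure only how far differences between gates varied between these 2 libraries, which may be technical. A difference between the libraries that all gates share was fitted apart and does not enter them.

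Smooth muscle contracts when calcium and calmodulin activate myosin light chain kinase (Mylk), which phosphorylates the regulatory light chain (Myl9) of smooth muscle myosin (heavy chain Myh11, essential light chain Myl6). The myosin then pulls on filaments of alpha smooth muscle actin (Acta2) that carry tropomyosin, calponin and caldesmon and are anchored in dense bodies by alpha-actinin and at the membrane by vinculin, filamin and other adhesion proteins. In brain, smooth muscle cells ring arteries and arterioles, while pericytes lie along capillaries and are known for low levels of Acta2 and Myh11. Serum response factor (Srf) and its cofactor myocardin (Myocd) drive many of these genes through a DNA element called the CArG box.

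The CArG box was searched by its exact consensus on both strands in RefSeq promoter windows of the build GRCm38.p6, each 300 bases long, from 250 bases before to 50 bases after a gene start. Windows were matched for 30 of the 35 members (34 windows, since some genes have more than 1 start). A box was present in a window of 6 of those 30 members (20%), namely Myl9, Myl6, Ldb3, Vcl, Cnn2 and Srf, while 535 of all 32851 windows (1.63%) held a box. A match is a description of the letters and not a bound site. The 250 bases upstream of the start are printed for 5 of these genes, because they include both members whose level differed severalfold between the cell gates (Myl9, Ldb3) and members whose level differed little (Vcl, Cnn2), besides Srf itself. The sequences run 5′ to 3′ on the strand of the gene, with the box in capitals. They lie at chr2:156775214-156775463 (+ strand, Myl9, box starting 161 bases before the gene start), chr14:34588682-34588931 (- strand, Ldb3, 35 bases before), chr14:20929148-20929397 (+ strand, Vcl, 227 bases before), chr10:79988350-79988599 (+ strand, Cnn2, 56 bases before) and chr17:46556163-46556412 (- strand, Srf, boxes 82 and 62 bases before).
Myl9: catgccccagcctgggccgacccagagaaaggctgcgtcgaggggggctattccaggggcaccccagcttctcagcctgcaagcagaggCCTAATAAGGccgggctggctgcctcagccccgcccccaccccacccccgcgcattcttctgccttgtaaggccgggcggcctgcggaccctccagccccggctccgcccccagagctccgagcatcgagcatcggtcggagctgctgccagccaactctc
Ldb3: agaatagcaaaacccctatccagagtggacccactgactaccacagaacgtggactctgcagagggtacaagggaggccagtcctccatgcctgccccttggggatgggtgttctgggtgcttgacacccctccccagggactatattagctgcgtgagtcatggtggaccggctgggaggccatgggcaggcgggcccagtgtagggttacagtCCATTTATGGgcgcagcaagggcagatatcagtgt
Vcl: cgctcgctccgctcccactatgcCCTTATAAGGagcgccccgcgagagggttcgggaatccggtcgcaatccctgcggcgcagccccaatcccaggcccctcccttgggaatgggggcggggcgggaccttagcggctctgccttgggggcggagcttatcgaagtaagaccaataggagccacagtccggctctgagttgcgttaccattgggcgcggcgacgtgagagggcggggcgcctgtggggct
Cnn2: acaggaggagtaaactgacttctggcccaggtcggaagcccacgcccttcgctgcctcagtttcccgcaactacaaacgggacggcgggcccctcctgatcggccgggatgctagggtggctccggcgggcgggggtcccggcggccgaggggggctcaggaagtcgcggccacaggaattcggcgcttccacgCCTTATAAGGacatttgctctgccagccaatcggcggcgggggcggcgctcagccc
Srf: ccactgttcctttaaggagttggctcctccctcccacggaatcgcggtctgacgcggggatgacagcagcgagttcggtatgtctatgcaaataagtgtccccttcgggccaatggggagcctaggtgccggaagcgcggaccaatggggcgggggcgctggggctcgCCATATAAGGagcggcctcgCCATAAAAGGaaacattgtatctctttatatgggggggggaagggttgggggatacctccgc
Vcl and Cnn2 carried the same 10 bases, CCTTATAAGG, and the box of Myl9 was CCTAATAAGG. The windows of Acta2 and Cnn1 held no exact match, which says only that these letters are not in those windows.

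The libraries held 8236 and 7077 barcodes with 59026190 and 26218090 unique molecular identifiers (UMIs, each counting 1 captured transcript), of which 7697 and 6427 barcodes with medians of 6897 and 3016 UMIs were kept, and 14 barcode sequences occurred in both libraries. Cells were then placed in 5 gates by their UMIs per 10000. Cnn1-high smooth muscle (Acta2 at 80 or more, Cnn1 at 3 or more) held 1181 cells in replicate 1 and 127 in replicate 2. Other smooth muscle (Acta2 at 80 or more) was split by Rgs5, a pericyte and smooth muscle signalling gene, at 80 into Rgs5-low (1577 and 513 cells) and Rgs5-high (855 and 156 cells). The transitional gate (Acta2 from 20 to 80, Rgs5 at 80 or more) held 740 and 360 cells, and the pericyte gate (Vtn at 50 or more, Acta2 under 20) 2394 and 3298 cells. The gates are ranges along a few genes and not cell types: 515 and 237 cells lay within 20% of the Acta2 value of 80, and 158 of 1181 (13.4%) and 78 of 127 (61.4%) Cnn1-high cells held at most 3 Cnn1 UMIs. Acta2, Cnn1, Rgs5 and Vtn set the gates, so their values are given as descriptions and were not tested, which left 33 members for tests.

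Summed pericyte markers moved against the members over the gates, while markers of other cell types were lower. Rgs5 and Vtn, which set the gates, are among the 8 pericyte markers, so this order was largely fixed by the gates. The 8 pericyte markers summed to 2351 and 2080 CPM (counts-per-million scale: UMIs of the genes relative to all UMIs of the gate) in Cnn1-high, 6239 and 4997 CPM in Rgs5-low and 20620 and 17300 CPM in Rgs5-high cells. They reached 27950 and 22180 CPM in transitional and 38910 and 32130 CPM in pericyte cells, and their part in the members' levels was not tested. Of these sums, Rgs5 gave 14020 and 12510 CPM in Rgs5-high cells and Vtn 19190 and 17330 CPM in pericyte cells. The 6 smooth muscle markers of the marker list are members themselves, the gate genes Acta2 and Cnn1 among them, so their sums are no separate check. All 6 had UMIs in all 5 gates. They summed to between 11310 and 50390 CPM from the transitional to the Cnn1-high gate and to 1240 and 691 CPM in the pericyte gate. The 6 endothelial markers summed to between 21.1 and 165 CPM in the 3 smooth muscle gates, against 19100 and 16310 CPM in a gate of endothelial cells, and Pecam1 was at 0 in the Rgs5-high gate of replicate 2. The sums were 525 and 1057 CPM in the pericyte gate, at most 34.2 CPM for microglial, 70.4 CPM for astrocytic and 18.4 CPM for neuronal markers in any of the 5 gates, and between 211 and 821 CPM for fibroblast markers. Immediate-early genes separated the libraries: Fos reached 10 per 10000 in at most 1.27% of the cells of a gate in replicate 1 and in 36.5% to 59.8% in replicate 2. The share of UMIs from mitochondrial genes moved with the gates, with medians of 12.5%, 10.7%, 8.86%, 7.81% and 5.38% from Cnn1-high to pericyte in replicate 1 and of 7.99% to 3.71% in replicate 2, and its part in the results was not tested beyond a stricter filter given with each count it moved.

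The 35 members together took up a large part of the transcripts of smooth muscle cells. They accounted for 9.90% of all UMIs of the Cnn1-high gate in replicate 1 and 8.34% in replicate 2. The share was 7.60% and 6.61% in the Rgs5-low gate, 5.50% and 5.11% in the Rgs5-high gate, 3.31% and 3.16% in the transitional gate and 1.44% and 1.29% in the pericyte gate. The values of the 2 libraries did not overlap between any neighbouring gates. Without Acta2 and Cnn1, which set the gates, the order was the same, from 7.31% and 6.31% in the Cnn1-high gate to 1.41% and 1.28% in the pericyte gate. Endothelial cells gave 0.784% and 0.786%. With 2 libraries these shares carry no test.

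**Figure D1:**
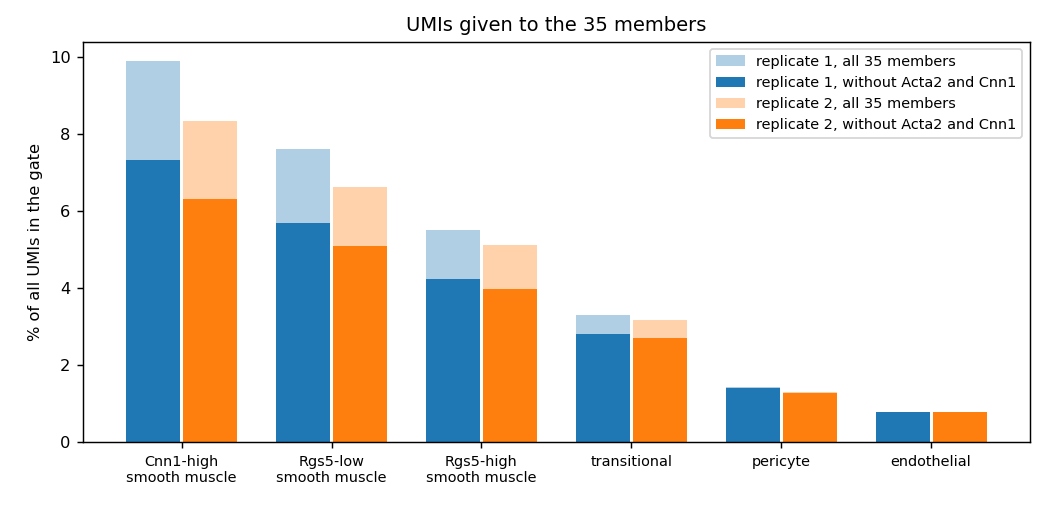
Percent of all UMIs of each gate that came from the 35 members (pale bars) and from the 33 members other than Acta2 and Cnn1 (dark bars), for replicate 1 (blue) and replicate 2 (orange). The share falls from 9.90% and 8.34% in Cnn1-high smooth muscle to 1.44% and 1.29% in pericytes, with lower shares still in endothelial cells.

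Between the ends of this series, Cnn1-high smooth muscle against pericytes, nearly the whole apparatus was higher in the smooth muscle cells. Of the 33 members tested, 28 were higher, 2 were lower (Myl12a and Myl12b) and 3 (Cnn3, Cald1 and Tpm4) were not called, by edgeR's quasi-likelihood test on UMI sums per gate and library at an adjusted p of 0.05. Of all 12342 genes tested, 21.2% were higher and 20.9% lower in this comparison. The median log2 difference was 2.83 for the members and -0.06 for all genes. These differences are on edgeR's TMM scale: with library totals alone the median of all genes moved to -0.51, the members' split to 26 higher and 5 lower, and the split of all genes from 2613 higher and 2574 lower to 1597 higher and 5571 lower. All 33 members passed the filter on low counts. Of the 30 calls, 28 held in each of 16 other settings that kept the library as a block; the exceptions were Vcl and Pgm5.

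**Figure D2:**
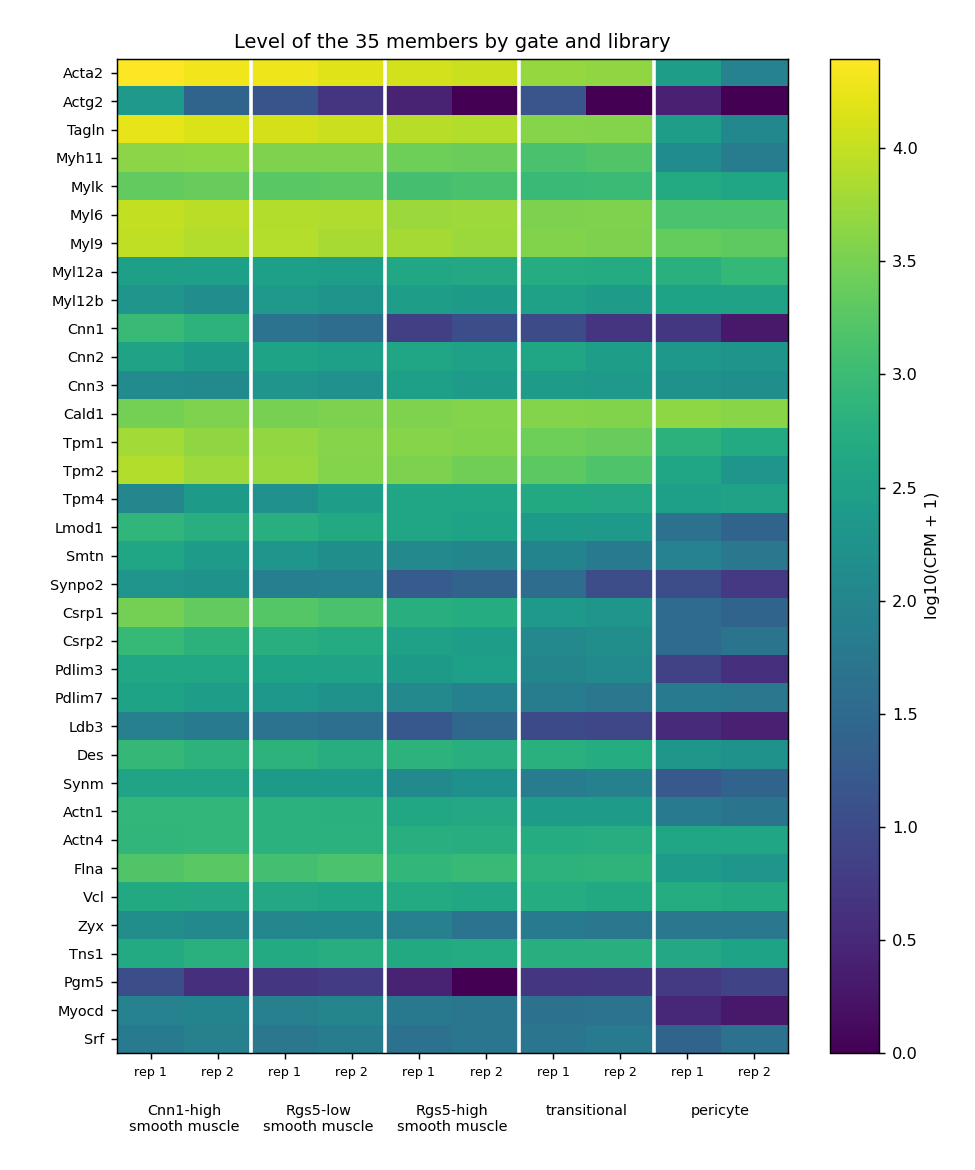
Level of each of the 35 members as log10(CPM + 1) in the 5 gates, with replicate 1 and replicate 2 side by side. Most rows darken from Cnn1-high smooth muscle on the left to pericytes on the right, while Cald1, Vcl and Cnn2 stay at a like shade.

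Actins and their close partners were far higher in smooth muscle than in pericytes. Acta2, a gate gene, stood at 24940 and 19680 CPM in the Cnn1-high gate and at 282 and 88.5 CPM in the pericyte gate. Tagln, which encodes the actin-binding protein transgelin, was measured at 17240 and 14080 CPM in Cnn1-high, 13060 and 11040 CPM in Rgs5-low, 8398 and 7637 CPM in Rgs5-high, 3974 and 3763 CPM in transitional and 281 and 112 CPM in pericyte cells. Its values did not overlap between any neighbouring gates, and it was higher by 6.80 ± 0.28 (log2, SE) in Cnn1-high than in pericyte cells (edgeR adjusted p = 8.998e-10). The transitional gate already exceeded pericytes by 4.53 ± 0.25 (adjusted p = 7.182e-08), whereas the differences between the smooth muscle gates, 0.45 ± 0.22 and 0.67 ± 0.22, were not called (adjusted p = 0.4637 and 0.1356). Lmod1, leiomodin, which starts actin filaments, ran from 785 and 574 CPM in Cnn1-high to 42.0 and 25.5 CPM in pericyte cells, a difference of 4.77 ± 0.17.

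Actg2, the gamma actin typical of gut and bladder smooth muscle, was, among the tested members, the one with the largest difference between the Cnn1-high and Rgs5-low gates, and it differed widely between libraries. It stood at 229 CPM there in replicate 1 (2719 UMIs in 480 of 1181 cells) and at 24.9 CPM in replicate 2 (16 UMIs in 10 of 127 cells). The Rgs5-low gate held 12.9 and 3.86 CPM, and all gates beyond it at most 13.2 CPM in replicate 1 and 0 UMIs in replicate 2. Within each library the Cnn1-high value was above the Rgs5-low value, by 17.8-fold in replicate 1 and 6.46-fold in replicate 2, and the difference of 4.10 ± 0.31 was called (edgeR adjusted p = 2.562e-05). Against pericytes the ratio was 149-fold in replicate 1 and at least 74.1-fold in replicate 2, where pericytes held no Actg2 UMI and 3 counts were taken as the limit. In replicate 1, 58.4% of the Actg2 UMIs of the Cnn1-high gate lay in 118 of its 1181 cells. The proteins of Acta2 and Actg2 are nearly identical, and how shared sequence was counted is not stated. Its part in the Actg2 values was not tested.

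The CPM of smooth muscle myosin and its kinase followed the same order. Myh11, the heavy chain, was found at 4282 and 4488 CPM in Cnn1-high, 3528 and 3460 CPM in Rgs5-low, 2623 and 2431 CPM in Rgs5-high, 1378 and 1624 CPM in transitional and 139 and 71.6 CPM in pericyte cells. Neighbouring gates did not overlap, and the ends differed by 5.82 ± 0.25 (edgeR adjusted p = 1.125e-09). The steps between the smooth muscle gates, 0.40 ± 0.20 and 0.56 ± 0.20, were not called (adjusted p = 0.484 and 0.1887). Mylk, the kinase, fell less far, from 2202 and 2406 CPM to 492 and 393 CPM (2.79 ± 0.12), and Myl6, the essential light chain that other cell types also use, from 9732 and 8723 CPM to 1434 and 1421 CPM (3.11 ± 0.12). Mylk and Myl6 were also called higher in Rgs5-low than in Rgs5-high cells, by 0.62 ± 0.12 and 0.53 ± 0.11.

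The regulatory light chains went opposite ways. Myl9, the smooth muscle chain, stood at 9595 and 7859 CPM in Cnn1-high cells and was still at 2317 and 2063 CPM in pericytes, a difference of 2.40 ± 0.12 (edgeR adjusted p = 3.33e-09). Myl12a, a chain of non-muscle myosin, was measured at 298 and 299 CPM in Cnn1-high and 627 and 841 CPM in pericyte cells, and Myl12b, its close relative, at 198 and 143 CPM against 348 and 339 CPM. Both were lower in Cnn1-high cells, by -0.87 ± 0.14 (adjusted p = 0.000223) and -0.58 ± 0.13 (adjusted p = 0.00315), and neither pair of values overlapped. Myl12b was the only member whose CPM increased at each step from Cnn1-high to pericyte in both libraries, a pattern met in 5.63% of all genes tested. As a share of the UMIs of the 3 light chain genes, Myl9 declined from 95.1% and 94.7% in Cnn1-high to 70.4% and 63.6% in pericyte cells. The coding sequences of Myl12a and Myl12b are alike, so the split between them is uncertain.

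Among the thin filament regulators, tropomyosins and calponins differed in makeup between the gates while caldesmon passed no test. Tpm2, beta-tropomyosin, stood at 7903 and 5600 CPM in Cnn1-high, 5168 and 3857 CPM in Rgs5-low and 378 and 201 CPM in pericyte cells, and was called higher at each of the 4 steps, beginning with 0.65 ± 0.14 between Cnn1-high and Rgs5-low (edgeR adjusted p = 0.01968). Tpm1 went from 6051 and 4732 CPM to 664 and 494 CPM (3.64 ± 0.13), with overlap between the first 3 gates. Tpm4, a non-muscle tropomyosin, was highest of the 5 gates in transitional cells, 465 and 450 CPM, and its Cnn1-high values of 109 and 249 CPM differed between libraries (log2 ratio of replicate 2 to replicate 1 of 1.20). Its difference from pericytes (-0.56 ± 0.22, adjusted p = 0.06062) was not called.

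Of the UMIs of Tpm1, Tpm2 and Tpm4 together, Tpm2 made up 56.2% and 52.9% in Cnn1-high and 28.2% and 19.5% in pericyte cells. Tpm4 made up 0.774% and 2.36% against 22.3% and 32.5%. Tpm3, which is not a member, was left out of these shares. Tpm1 kept between 43.0% and 54.0% in all 5 gates. Of the calponins, which bind actin and slow myosin, the smooth muscle form Cnn1 set the gate, so its share is a description only. Cnn1 was 66.8% and 64.9% of calponin UMIs in the Cnn1-high gate and at most 7.89% in the other 4 gates, where Cnn2 led with 53.8% to 59.7%. Cnn2 itself was 339 and 253 CPM in Cnn1-high and 222 and 188 CPM in pericyte cells (0.95 ± 0.11, edgeR adjusted p = 1.693e-05). The gates between held more, with 355 and 297 CPM in Rgs5-low, 395 and 329 CPM in Rgs5-high and 381 and 293 CPM in transitional cells. Of the steps, only that from transitional cells to pericytes was called (0.84 ± 0.11). Cnn3 peaked in Rgs5-high cells at 299 and 272 CPM, was lower in Rgs5-low cells by -0.57 ± 0.11 (adjusted p = 0.006835), and did not pass the test between the ends (0.05 ± 0.11).

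Cald1, caldesmon, was the most abundant member in pericytes. It stood at 3050 and 3506 CPM in Cnn1-high, 3135 and 3348 CPM in Rgs5-low, 3538 and 3766 CPM in Rgs5-high, 3738 and 3687 CPM in transitional and 4409 and 4201 CPM in pericyte cells. None of the 5 comparisons was called (between -0.08 and 0.09 for the steps and 0.02 ± 0.10 for the ends). With library totals alone the Cald1 difference between the ends was -0.40 and that of Cnn3 -0.38, both then called lower. UMIs count the 3′ ends of transcripts, so these levels are per captured transcript and the smooth muscle and non-muscle isoforms of Cald1, Tpm1 or Vcl were not told apart. Smtn, smoothelin, and Synpo2, a synaptopodin family member, are actin-binding proteins of contractile cells. Smtn was at 385 and 264 CPM in Cnn1-high, 201 and 154 CPM in Rgs5-low and 88.2 and 56.7 CPM in pericyte cells. Synpo2 was at 194 and 175 CPM in Cnn1-high, 79.1 and 86.2 CPM in Rgs5-low, 18.2 and 24.2 CPM in Rgs5-high, 36.1 and 9.93 CPM in transitional and 9.89 and 4.27 CPM in pericyte cells. In replicate 1 it was thus higher in transitional than in Rgs5-high cells, and in replicate 2 lower. Cnn1-high cells exceeded Rgs5-low cells by 0.95 ± 0.12 for Smtn (edgeR adjusted p = 0.0009252) and 1.23 ± 0.27 for Synpo2 (adjusted p = 0.02504).

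**Figure D3:**
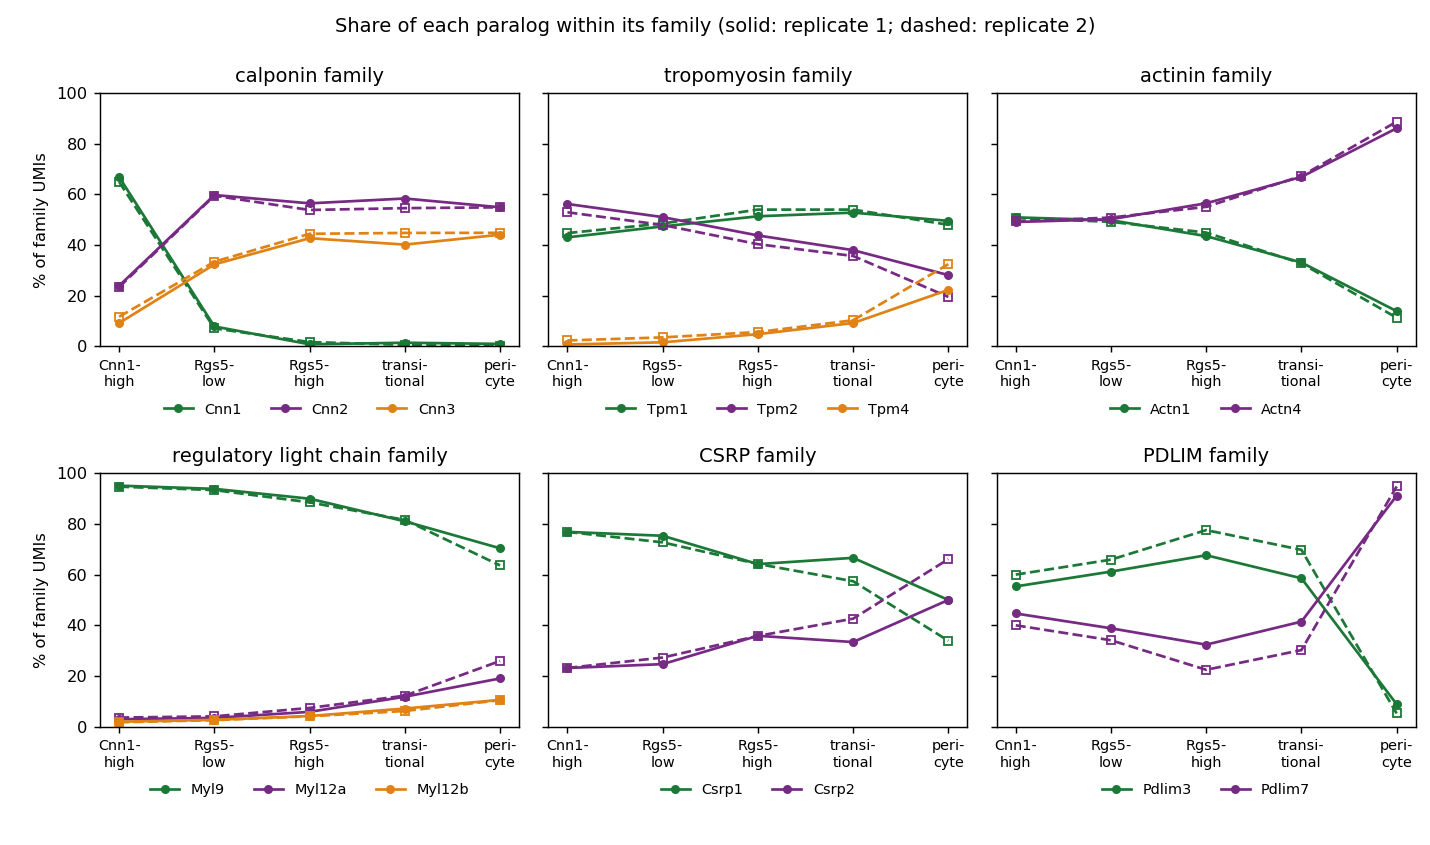
Share of each paralog in the summed UMIs of the members of its family (percent, vertical axis) in the 5 gates. Replicate 1 has solid lines and filled circles, replicate 2 dashed lines and open squares. Family genes that are not members, such as Tpm3, were left out, so these are not shares of whole families. Cnn1, Tpm2, Actn1, Myl9, Csrp1 and Pdlim3 hold a lower share in pericytes than in Cnn1-high cells. In pericytes Pdlim7 reaches 91.1% and 94.8% of the UMIs of Pdlim3 and Pdlim7 together. Actn4 reaches 86.1% and 88.7% of those of Actn1 and Actn4 there.

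Proteins of the dense body and the LIM domain proteins that bind alpha-actinin included Pdlim3 and Csrp1, whose differences between the ends were the largest of the tested members after Actg2. Csrp1, a cysteine and glycine rich LIM protein of smooth muscle, was measured at 2951 and 2181 CPM in Cnn1-high, 1711 and 1369 CPM in Rgs5-low, 579 and 523 CPM in Rgs5-high, 230 and 199 CPM in transitional and 33 and 24.7 CPM in pericyte cells. No neighbouring gates overlapped, every step was called (0.81 ± 0.12, 1.57 ± 0.12, 1.47 ± 0.12 and 3.03 ± 0.13), and the ends differed by 6.89 ± 0.15 (edgeR adjusted p = 1.945e-11). Its relative Csrp2 ran from 889 and 658 CPM to 33 and 48.2 CPM (4.69 ± 0.24). Csrp1 took 76.9% and 76.8% of the UMIs of the pair in Cnn1-high cells but 50% and 33.9% in pericytes.

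Pdlim3, a PDZ and LIM domain protein bound to alpha-actinin, was at 436 and 430 CPM in Cnn1-high and 6.08 and 3.14 CPM in pericyte cells (6.94 ± 0.24, edgeR adjusted p = 2.415e-10), with most of the drop between the transitional gate (103 and 128 CPM) and pericytes. Pdlim7 ran from 352 and 287 CPM to 62.5 and 57.0 CPM. It was called at each step from Cnn1-high to transitional cells (0.75 ± 0.12, 1.05 ± 0.12 and 0.80 ± 0.13). Between transitional cells and pericytes it was not called (0.23 ± 0.13, edgeR adjusted p = 0.2578). Ldb3, a Z-disc protein of striated muscle that binds alpha-actinin, was far rarer at 82.2 and 63.9 CPM in Cnn1-high and 2.45 and 1.57 CPM in pericyte cells (5.62 ± 0.28). Alpha-actinin itself split by paralog: Actn1 went from 800 and 825 CPM to 62.7 and 48.5 CPM (4.28 ± 0.13) and Actn4, the form of many non-muscle cells, from 771 and 803 CPM to 388 and 379 CPM (1.45 ± 0.11). Of the intermediate filament genes, Synm, synemin, ran from 367 and 373 CPM to 16.2 and 25.1 CPM (4.61 ± 0.19), and Des, desmin, from 851 and 695 CPM to 214 and 183 CPM (2.38 ± 0.11). Des was nearly level from Cnn1-high to transitional cells (615 and 519 CPM), and none of those 3 steps was called.

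The adhesion and cytoskeletal linkers differed among themselves. Flna, filamin A, which crosslinks actin, was at 1608 and 1886 CPM in Cnn1-high and 260 and 206 CPM in pericyte cells (3.31 ± 0.14, edgeR adjusted p = 9.89e-10). Vcl, vinculin, stood at 476 and 441 CPM in Cnn1-high and 530 and 476 CPM in pericyte cells. It was called higher in Cnn1-high cells by 0.28 ± 0.10 on the TMM scale (adjusted p = 0.04544) although its plain CPM ratio pointed the other way in both libraries (log2 of -0.15 and -0.11), so its direction depends on the scaling. Tns1, tensin 1, showed 490 and 619 CPM against 453 and 360 CPM (0.85 ± 0.13, with a log2 CPM ratio of 0.11 in replicate 1 and 0.78 in replicate 2), and Zyx, zyxin, 150 and 119 CPM against 55.7 and 56.5 CPM (1.70 ± 0.17). Pgm5, aciculin, a partner of dystrophin, was near the limit of detection with 125 and 2 UMIs in the Cnn1-high gate, 10.5 and 3.12 CPM, against 4.63 and 6.96 CPM in pericytes. Its call (1.17 ± 0.41, adjusted p = 0.03705) rested on replicate 1, since in replicate 2 alone the log2 ratio was -1.16.

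The transcriptional regulators differed from each other in how far they dropped. Myocd, the smooth muscle cofactor of Srf, was level between Cnn1-high (86.3 and 93.5 CPM) and Rgs5-low cells (82.7 and 101 CPM; 0.06 ± 0.17), then stood at 59.1 and 52.9 CPM in Rgs5-high, 42.2 and 46.8 CPM in transitional and 2.18 and 1.01 CPM in pericyte cells. The step from transitional cells to pericytes was 4.85 ± 0.24 (edgeR adjusted p = 4.108e-08), the largest of the tested members at that step. At least 1 Myocd UMI was found in 53.7% and 35.4% of Cnn1-high cells, 22.7% and 16.9% of transitional cells and 0.919% and 0.212% of pericytes, beside 0.413% and 0.532% of endothelial cells. The pericyte share lay above the endothelial share in replicate 1 and below it in replicate 2. Whether these few UMIs are background was not tested. After thinning each cell to 2000 UMIs the shares were 15.6% and 16.1% in Cnn1-high and 8.70% and 8.72% in transitional cells. Srf, expressed in many cells, differed less, with 62.0 and 81.1 CPM in Cnn1-high and 25.5 and 43.0 CPM in pericyte cells (1.52 ± 0.16, adjusted p = 4.193e-06). For Srf, only the step from transitional cells to pericytes was called (0.91 ± 0.16, edgeR adjusted p = 0.0009144).

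Step by step, the gates differed to unequal degrees. Between Cnn1-high and Rgs5-low smooth muscle, 8 of 33 members were higher and 0 lower: Actg2, Synpo2, Smtn, Ldb3 (0.88 ± 0.21), Csrp1, Pdlim7, Synm (0.69 ± 0.16) and Tpm2. Of all genes tested, 1.57% were higher, 1.86% lower and 3.43% called in either direction there, with medians of 0.40 for the members and -0.01 for all genes. By sign alone, 24 members were higher and 4 lower in both libraries. Signs were not counted over all genes, so nothing particular to the members is read from this. The count of 8 became 4 with an Rgs5 limit of 40, 15 with 160 and 4 with cells under 10% mitochondrial UMIs. It was 14 with no filter on low counts and 0 without the library block, where 11 members had an unadjusted p under 0.05. Over all genes, 194 higher and 229 lower became 73 and 64 with an Rgs5 limit of 40 and 289 and 396 with 160. They became 70 and 43 with the mitochondrial filter, 273 and 324 with no low-count filter and 0 and 0 without the block. Smtn, Csrp1 and Pdlim7 were called in all 16 settings with the block, and DESeq2 called 11 members, 5 of them shared with the 8.

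Between Rgs5-low and Rgs5-high smooth muscle, 17 members were higher and 1, Cnn3, was lower, against 2.1% higher, 2.31% lower and 4.41% in either direction among all genes, with a member median of 0.57. Actg2 (3.19 ± 0.49, from replicate 1, as replicate 2 held 9 and 0 UMIs), Synpo2 (adjusted p = 0.001515), Csrp1 (1.57 ± 0.12), Ldb3 (1.42 ± 0.25) and Pdlim7 (1.05 ± 0.12) led, though the log2 CPM ratio of Ldb3 was 1.63 in replicate 1 and 0.37 in replicate 2, and Myocd (0.74 ± 0.18, edgeR adjusted p = 0.03029) was among them. Cells with Rgs5 near 80 were 13.1% and 13.2% of those split. The count of 18 became 10 with cells under 10% mitochondrial UMIs and 1 without the library block, where 18 members had an unadjusted p under 0.05. Over all genes, 259 higher and 285 lower became 135 and 147 with the mitochondrial filter and 7 and 13 without the block.

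Between Rgs5-high smooth muscle and transitional cells, 15 members were higher and 1 lower, against 1.28% higher, 1.69% lower and 2.97% in either direction among all genes, with a member median of 0.51. Csrp1, Csrp2 (1.37 ± 0.22), Pdlim3 (1.35 ± 0.19) and Tagln (1.15 ± 0.22) led. The lower member was Actg2 (-2.77 ± 0.54, edgeR adjusted p = 0.01445), which rested on replicate 1, where 65 UMIs lay in 20 of 740 transitional cells and 35 of them in 5 cells. Replicate 2 had no Actg2 UMI in either gate, and DESeq2 did not call it (adjusted p = 0.9505). The count of 16 became 6 with an Rgs5 limit of 160 and 0 without the library block, where 16 members had an unadjusted p under 0.05. Over all genes, 158 higher and 209 lower became 33 and 29 with that Rgs5 limit and 0 and 0 without the block.

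The step from transitional cells to pericytes was the widest, also for the gate gene Acta2. Its log2 CPM ratio was 4.17 and 5.73 here, against 0.36 to 1.32 at the other steps. The gates are thus unequally spaced by Acta2, and the part of this spacing in the width was not tested. In transitional cells 25 of 33 members were higher and 0 lower, against 11.5% higher and 8.02% lower among all genes, with a member median of 1.41. Myocd, Pdlim3 (4.73 ± 0.23), Tagln and Myh11 (4.01 ± 0.23) led, and the 8 members not called were Myl12a, Myl12b, Cald1, Smtn, Vcl, Pdlim7, Pgm5 and Zyx. Smtn and Pdlim7, called at each of the other 3 steps, are among those not called here (0.28 ± 0.13 and 0.23 ± 0.13). Neighbouring comparisons share the sums of the gate between them.

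**Figure D4:**
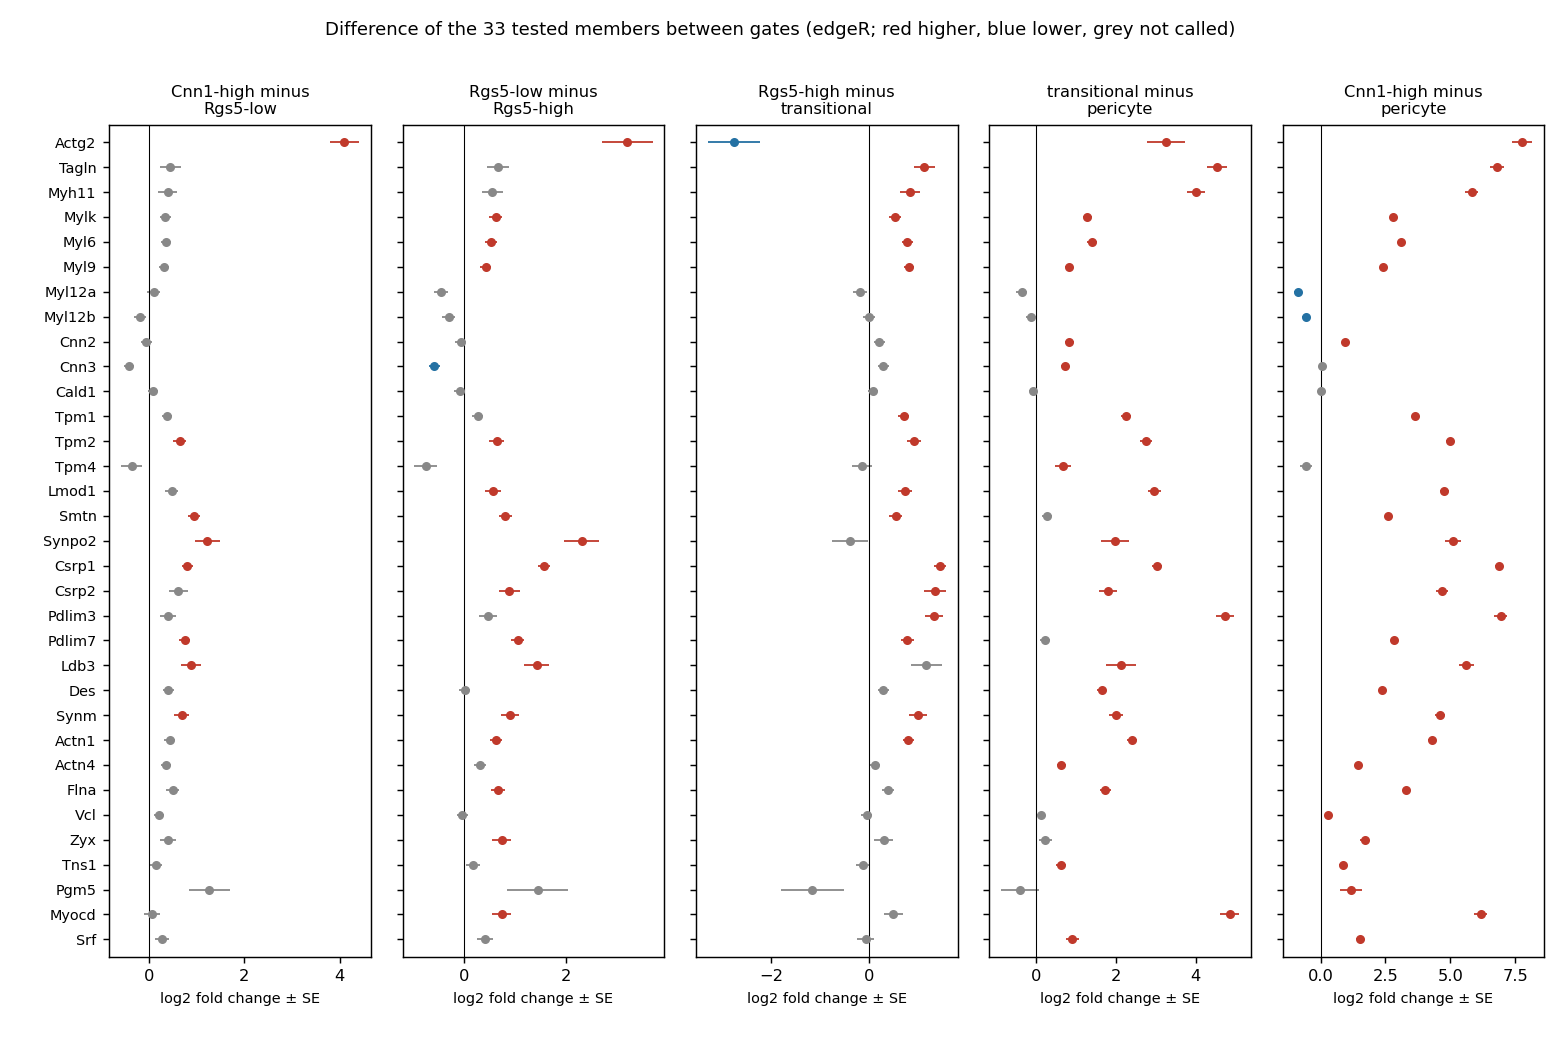
Log2 fold change with SE of the 33 tested members in the 4 steps and between the ends (edgeR, TMM scale), in red where called higher, blue where called lower and grey where not called. The step from transitional cells to pericytes holds 25 red points, and Pgm5 has the widest error in the steps down to transitional cells, from 0.43 to 0.65.

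Over all 5 gates, the CPM of 16 of the 33 members decreased at every step from Cnn1-high smooth muscle to pericytes in both libraries, against 2.08% of all genes tested. They were Tagln, Myh11, Mylk, Myl6, Myl9, Tpm1, Tpm2, Lmod1, Smtn, Csrp1, Csrp2, Actn1, Flna, Pdlim3, Ldb3 and Synm. The count lay between 13 and 17 under 11 other gate limits and cell filters. When gates were set on a random part of the UMIs and levels taken from the rest, 17 members showed the pattern, 15 of them among the 16. Leaving out cells with Fos at 10 per 10000 or more gave 16 members, 15 of them the same.

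Within the Cnn1-high gate, levels were also read by the Cnn1 level of the cells (3 to 5, 5 to 10, and 10 or more per 10000), a division chosen after the values were seen and given as a description. Replicate 1 had 311, 497 and 373 cells and replicate 2 had 50, 51 and 26 in these bins. Actg2 stood at 74.4, 133 and 476 CPM in replicate 1 and at 7.81, 31.7 and 45.2 CPM in replicate 2, the latter from 2, 8 and 6 UMIs. Synpo2 went from 149 to 260 CPM in replicate 1 and from 133 to 264 CPM in replicate 2, and Smtn from 320 to 453 CPM and from 223 to 354 CPM. Of the 33 members other than the gate genes, 14 were ordered upward over the bins in both libraries and 0 downward in both, against 2.71% upward and 4.46% downward among all genes tested. Cald1 was flat, with a top to bottom ratio of 1.01 and 0.994. The top to bottom ratio was 6.40 and 5.79 for Actg2 and 1.74 and 1.99 for Synpo2.

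**Figure D5:**
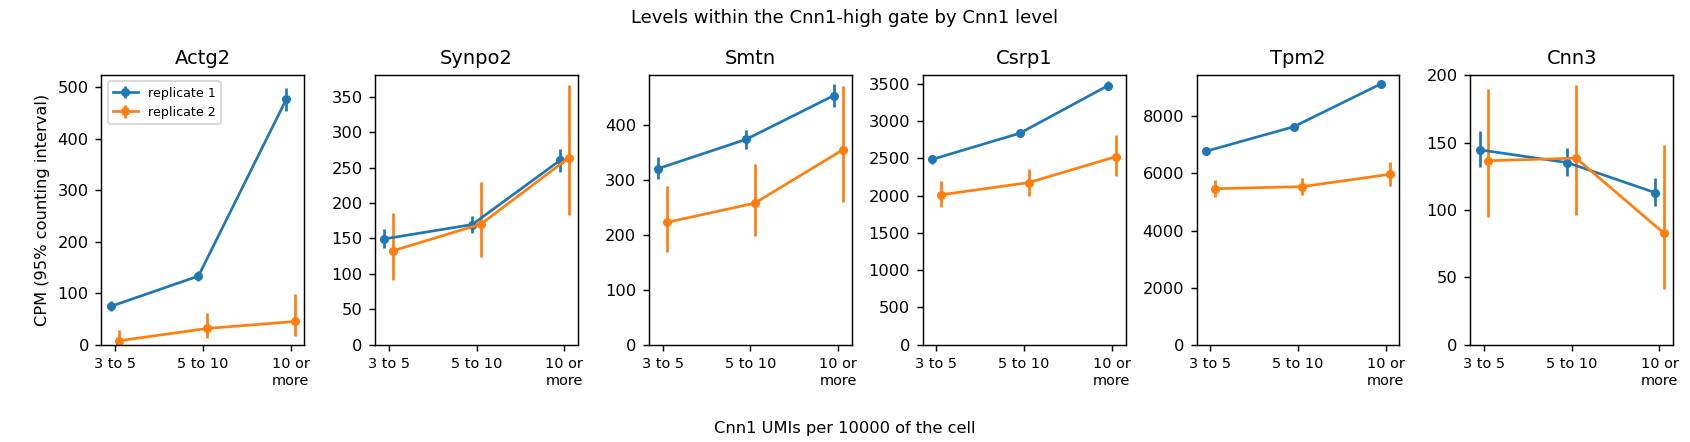
CPM of 6 members in Cnn1-high cells grouped by Cnn1 UMIs per 10000, with 95% exact Poisson intervals that cover counting error only, for replicate 1 (blue) and replicate 2 (orange). Actg2 climbs from 74.4 to 476 CPM in replicate 1 but stays at or below 45.2 CPM in replicate 2, and Cnn3 is the member that does not climb.

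In endothelial cells, several members stood above their level in pericytes. Csrp2 was at 461 and 433 CPM, against 33 and 48.2 CPM in pericytes. Synm was at 243 and 231 CPM there against 16.2 and 25.1 CPM, and Pgm5 at 38.1 and 57.6 CPM, more than in any of the 5 gates. Myl12b was highest in endothelial cells as well, 1021 and 906 CPM. In contrast, Myocd, Ldb3 and Pdlim3 were at most 4.45 CPM in endothelial cells. Acta2 in endothelial cells, 155 and 127 CPM, was measured beside pericyte values of 282 and 88.5 CPM, and free RNA, doublets and expression were not told apart there. No test was run on the endothelial gate.

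Genes around the apparatus were counted in 5 further lists for the ends, Cnn1-high against pericyte cells, where 21.2% of all genes were higher and 20.9% lower. Nothing particular to a list is read from its count. The dense plaque and adhesion list had 17 higher and 7 lower of 26 tested, with alpha-sarcoglycan Sgca (7.28 ± 0.32), palladin Palld (6.74 ± 0.27) and Sorbs2 (6.04 ± 0.18) at the top. Cytoplasmic actomyosin was divided, 6 higher and 3 lower of 10 tested, with the non-muscle myosin heavy chains in opposite directions, Myh10 higher by 1.83 ± 0.22 and Myh9 lower by -1.77 ± 0.14, and the light chain Myl6b higher by 2.60 ± 0.70. Of 14 tested cofactors and regulators of Srf, 5 were higher and 3 lower, among them the LIM proteins Fhl1 (3.14 ± 0.28) and Fhl2 (-4.52 ± 0.38) and Tead3 (1.70 ± 0.19).

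Of 14 sarcomeric genes of heart and skeletal muscle, 3 passed the filter. The list summed to 186 and 220 CPM in Cnn1-high and 16.0 and 10.4 CPM in pericyte cells, and Myom1 alone gave 149 and 192 CPM of it in Cnn1-high cells. Between the ends, Myom1, myomesin (5.01 ± 0.23), and Myl4 (3.69 ± 0.28) were higher and Ttn, titin (-4.13 ± 0.95) lower in Cnn1-high cells. Actc1, Myh6, Myh7, Myl7 and Actn2 had 0 UMIs in all 10 sums, which allows at most 0.22 CPM in the deepest sum and 4.68 CPM in the shallowest (3 counts, counting error only). Of 12 immediate-early genes 4 were higher and 0 lower, against 21.2% and 20.9% of all genes, led by Atf3 (2.03 ± 0.29), Zfp36 (0.89 ± 0.15) and Junb (0.85 ± 0.16). Their summed level was between 670 and 1037 CPM over the 5 gates of replicate 1 and between 13770 and 27320 CPM in replicate 2, and its part in the members' levels was not tested. With cells at 10 or more Fos UMIs per 10000 left out, 28 members were higher and 2 lower between the ends, as many as with all cells.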

How the data were processed

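The data were 2 libraries of single-cell RNA. The authors deposited UMI counts, whole numbers for each gene and barcode, from Cell Ranger 3.1.0 per the file headers. CASAVA 1.8 and Seurat 2.3.4 are named too in the submitters' processing notes. Build and annotation are not given in the sources used here. GENCODE M21 holds 30766 of the 30905 identifiers. Kept barcodes had 500 or more genes, 1000 or more UMIs and a mitochondrial share below 20%. Scrublet in scanpy 1.11.5 called 200 of 7697 cells (2.60%) and 1 of 6427 (0.0156%), so it has not worked in replicate 2, and doublets were left in.

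Counts were summed per gate and library (10 sums) and fitted with edgeR 4.0.16 in R 4.3.3 (quasi-likelihood test, TMM, filterByExpr, library as a block, 4 residual degrees of freedom), with Benjamini-Hochberg adjustment over 12346 genes and a threshold of 0.05. SE was taken as |log2 fold change| / sqrt(F). The block was used because all gates of a library come from 1 sorted preparation; deviations of the gates from their means correlated between 0.627 and 0.816 over 10 pairs of gates. The test was tested on simulated data: it recovered the changes made, but with gene-wise dispersions far more of its calls were false than the threshold allows. This bears on all calls, and most on those with an adjusted p just under 0.05. Alternatives were DESeq2 1.42.0, other scaling, filters, gates and cells. Poisson and Clopper-Pearson intervals are at 95% and cover counting error only. Endothelial cells had Cldn5 at 10 or more and Flt1 at 5 or more, per 10000. They were taken only from cells in none of the 5 gates, so their Acta2 lay under 80 per 10000. Their Vtn and Rgs5 also lay under the limits set for those gates.

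All 35 members are named; from each further list, at most the 3 called genes with the largest difference between Cnn1-high and pericyte cells. Members, gates and lists were chosen with earlier results of these data known.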

Additional observations from a re-analysis of the deposited data

How the results depend on the processing

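Between the ends and between transitional cells and pericytes, the counts of members called stayed within 1.5 times of those reported in every setting run. The other 3 comparisons moved. Without the replicate block the members called fell to 0 (Cnn1-high against Rgs5-low), 1 (Rgs5-low against Rgs5-high) and 0 (Rgs5-high against transitional), while 19 and 28 were called in the remaining comparisons; with no block, 11, 18 and 16 members of the first 3 had an unadjusted p under 0.05. Cnn1-high against Rgs5-low gave 14 with no low-count filter, 4 with an Rgs5 limit of 40, 15 with 160 and 4 with cells under 10% mitochondrial UMIs. The last filter gave 10 for Rgs5-low against Rgs5-high, and an Rgs5 limit of 160 gave 6 for Rgs5-high against transitional. The calls over all genes, given with each step above, rose or fell with these counts. The mitochondrial filter also left fewer cells, mainly in replicate 1. There the Cnn1-high gate went from 1181 to 159 cells and the Rgs5-low gate from 1577 to 612. In replicate 2 they went from 127 to 111 and from 513 to 473. The cause of these changes in the counts of calls was not tested. Calls kept in all 16 settings with the block were 3 of 8, 9 of 18, 5 of 16, 22 of 25 and 28 of 30. For values called in the reported or the other setting, signs reversed between the ends: Cnn3 (-0.38), Cald1 (-0.40) and Vcl (-0.14) with library totals and no TMM, Vcl (-0.11) and Pgm5 (-1.16) without replicate 1, and Vcl (-0.15) without replicate 2, which gave 1.19 for Pgm5. Members not called also changed sign without replicate 1, among them Pgm5 for Cnn1-high against Rgs5-low (-0.60) and Synpo2 for Rgs5-high against transitional (1.28). A single library leaves no residual degrees of freedom, so those values carry no test. Of 165 values per setting, 165 kept their side of the threshold when the members were left out of the totals and 149 under DESeq2. The quasi-dispersion setting legacy=FALSE, chosen after seeing the data, kept 161. Depth limited replicate 2, where the Cnn1-high gate had 641427 UMIs and 3 counts equal 4.68 CPM, so differences of Actg2 and Pgm5 there rest on few UMIs.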
